A study of Homo sapiens with 4 samples.

Results

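The genes described here are 10 components of interleukin 6 signaling in U266, a human multiple myeloma cell line grown from malignant plasma cells. They are the ligand IL6, the receptor chains IL6R and IL6ST, the kinases JAK1, JAK2 and TYK2, the transcription factor STAT3, and SOCS1, SOCS3 and PIM1, which STAT3 induces. They were picked by symbol out of 22411 genes measured, with earlier results of these data known, and each was read from the only transcript cluster (the set of array probes that covers 1 gene locus) that carried its symbol and no other. U266 cells had been kept for 24 h with PBS, the control that the labels call untreated, or with trabectedin, a marine-derived anticancer drug that alkylates DNA in its minor groove. RNA was hybridized to 4 Affymetrix Human Transcriptome Arrays, 2 per group. The dose is not settled here, since the label of the treated samples reads 2.5 nM and the treatment protocol 2.5 μM. The methods give DMSO as the solvent of the drug and name no DMSO in the control. The labels call the arrays of a group biological replicates, the design text speaks of different experiments, and neither says that replicate 1 of both groups came from the same one. The samples hold a single cell line in culture, and no stromal cells of the marrow are named in them.

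IL-6 binds its receptor chain IL6R, which may sit in the membrane or be shed from it, and the pair engages the shared signal-transducing chain IL6ST, also called gp130. JAK1, JAK2 and TYK2 are bound to the tail of IL6ST and phosphorylate it and STAT3, which enters the nucleus and induces genes of survival and growth, along with SOCS proteins that switch the receptor off. IL-6 is a growth and survival factor of plasma cells and of myeloma cells, and U266 is known as a line that makes its own IL-6.

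The promoter window of IL6 is shown because IL6 was the only ligand of the set and one of its few genes with a higher value under trabectedin, and because its start carries short, well-known transcription factor motifs. It runs from 250 bases before to 50 bases after the RefSeq start, at chr7:22726950-22727249 on the plus strand of GRCh38.p14. Capitals mark, from 5′ to 3′, a match to part of a cyclic AMP response element (ACGTCA), a match to the C/EBP motif (TTGCNNAA) and a match to the NF-kB motif (GGGA and TTCC with any 2 bases between), which do not overlap each other.
IL6 promoter: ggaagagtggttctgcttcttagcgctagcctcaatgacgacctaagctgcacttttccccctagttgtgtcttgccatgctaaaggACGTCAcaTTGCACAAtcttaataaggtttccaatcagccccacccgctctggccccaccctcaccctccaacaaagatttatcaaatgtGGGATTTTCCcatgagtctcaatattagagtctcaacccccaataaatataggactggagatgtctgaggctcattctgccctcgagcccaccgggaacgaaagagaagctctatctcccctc
The first match lay 163 to 158 bases before the start, the second 155 to 148 and the third 73 to 64. Searched on both strands of 35116 RefSeq windows of the same length, the NF-kB letters occurred in 1.61%, the C/EBP letters in 10.5% and the cyclic AMP letters in 7.98%. Of the 16 windows of the 10 genes, the IL6 window alone held the NF-kB and C/EBP letters, and a JAK1 window held the cyclic AMP letters 80 to 75 bases before its start. The palindrome that STAT dimers bind (TTCNNNGAA) was in 7.66% of all windows and in 0 of these 16, which says only that these letters are not in these windows.

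Values are log2 expression values that the authors normalized by RMA, and a difference of 1 is a 2-fold change of these values. Because probes differ in brightness, values are compared between arrays for a gene and not between genes. The 9 plasma cell markers measured included SDC1, TNFRSF17, XBP1, IRF4 and PRDM1, each at 12.29 or more on every array, and the whole list lay between 6.36 and 14.85 in control and between 6.14 and 13.84 under trabectedin. T cell markers (6 of 6 measured) lay between 3.73 and 6.00, and stromal markers (4 of 5) between 4.61 and 5.90. Myeloid markers (6 of 6) ranged from 3.94 to 8.67, with CD68 highest, and B cell markers (4 of 5) from 4.20 to 10.94, with all but BLK at 5.16 or less. Genes of unrelated tissues (13 of 15), which mark the low level of these arrays, lay between 4.11 and 5.59. The median log2 fold change over all 22411 genes was 0.10, so that a gene at 0 lay slightly below the middle of the genes. Scaling each array to the median of 50 ribosomal protein genes moved that median by -0.29. RNA came from whole cultures, in which fewer cells that express a gene and less RNA per cell cannot be told apart, and with 4 arrays the number of arrays limits the precision.

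The 10 genes did not move as 1 block. JAK1, JAK2 and IL6R were lower under trabectedin by at least 1.5-fold, IL6 and TYK2 were higher by less than that, and STAT3, IL6ST, PIM1, SOCS1 and SOCS3 differed by less than 0.30 on the log2 scale. The 3 genes lower by at least 1.5-fold stand beside 4.63% of all genes, or 8.69% of the genes above the median level of 5.90, where 8 of the 10 lay. No gene of the 10 was higher by 1.5-fold, against 2.8% of all genes and 4.82% of those above the median level. The values of both trabectedin arrays lay below both control arrays for 5 of the 10 (13.5% of all genes) and above both for 2 (35.8%), and the groups overlapped for the other 3. The median log2 fold change of the 10 was -0.17, against 0.10 over all genes.

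No gene of the whole table passed limma with Benjamini-Hochberg adjustment in the fit without a replicate block, so 0 of the 10 were called in either direction, against 0% of all genes. At an unadjusted p under 0.05, 3 of the 10 were lower (6.7% of all genes) and 2 were higher (7.3%). When limma let the variance follow the mean, the unadjusted p was 0.0574 for IL6R, 0.0579 for IL6 and 0.101 for TYK2. Between 2 and 2 arrays a two-sided exact permutation test of a single value cannot go below p = 0.333, and the p-values measure only the spread between these samples. Genes lower by 1.5-fold or more numbered 1038 in all and genes higher 627, which became 2035 and 87 when arrays were scaled to ribosomal protein genes. The counts of the 10 genes stayed at 3 and 0 under that scaling, with IL6ST at -0.47, STAT3 at -0.56, SOCS1 at -0.36 and PIM1 at -0.45.

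**Figure D1:**
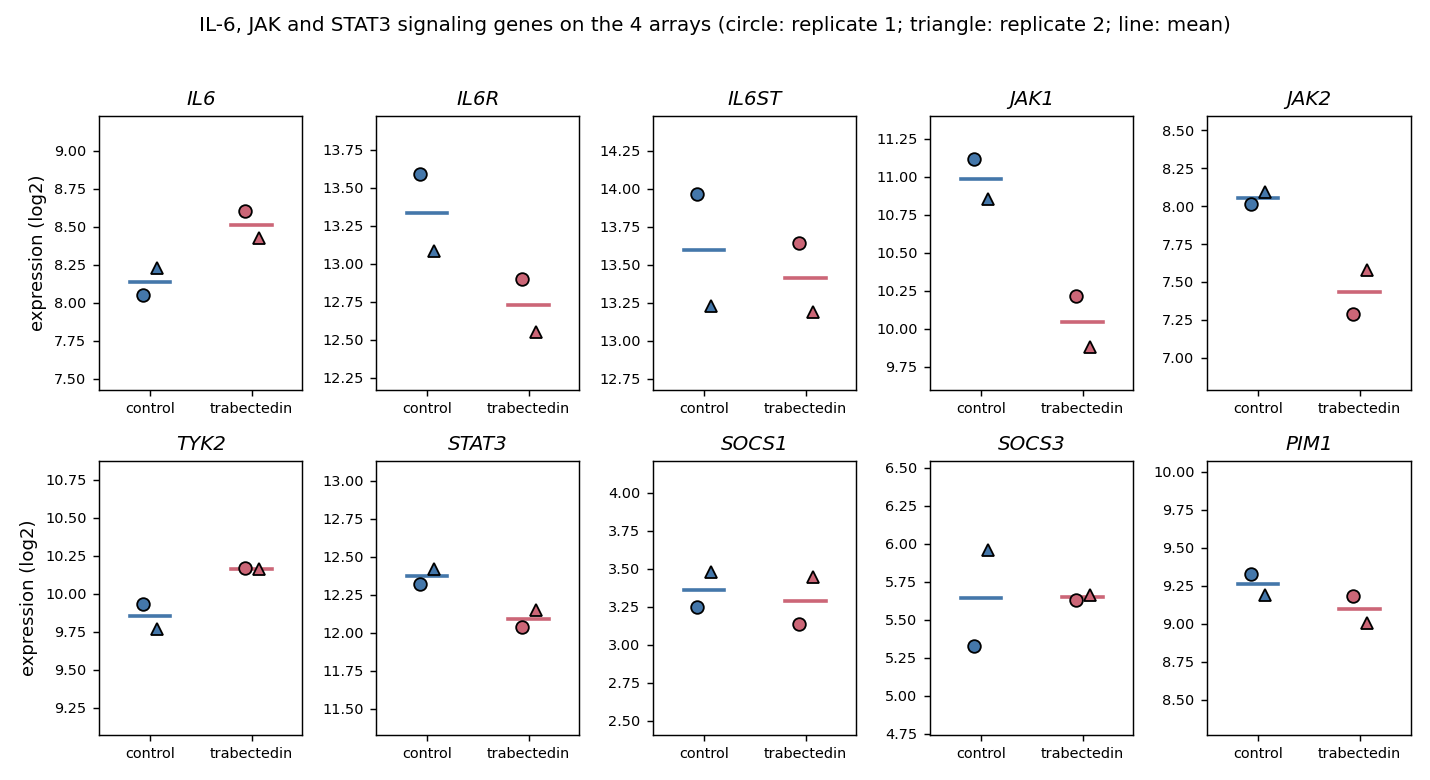
Log2 expression of each of the 10 genes on the 4 arrays, with control in blue, trabectedin in red, circles for replicate 1, triangles for replicate 2 and lines for the means of 2. Every panel spans the same range of log2 units around its own centre. The trabectedin points lie wholly below control for JAK1, JAK2, IL6R, STAT3 and, narrowly, PIM1, wholly above it for IL6 and TYK2, and overlap it for IL6ST, SOCS1 and SOCS3.

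The ligand was higher under trabectedin. IL6 (chr7:22727200-22731998) stood at 8.05 and 8.23 on the control arrays and at 8.61 and 8.42 on the trabectedin arrays. Both treated values lay above both control values, and the gap between the groups was close to the spread inside each. The control mean was 8.14 ± 0.12 and the trabectedin mean 8.51 ± 0.13 (SD, n = 2). The log2 fold change was 0.38 (SE 0.13, 95% interval 0.03 to 0.72), 1.30-fold higher, with a limma adjusted p of 0.326. It stayed positive without any one array, between 0.28 and 0.47, but was 0.09 when arrays were scaled to ribosomal protein genes.

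The ligand-binding receptor chain was lower. IL6R (chr1:154405343-154469450) stood at 13.59 and 13.08 in control and at 12.90 and 12.55 under trabectedin. The groups did not overlap, but the control arrays differed from each other by almost as much as the groups did. The log2 fold change was -0.61 (SE 0.23, 95% interval -1.202 to -0.02), 1.53-fold lower, with a limma adjusted p of 0.345. Without control replicate 1 it was -0.36 and without trabectedin replicate 2 it was -0.44, both short of 1.5-fold.

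The signal-transducing chain IL6ST (chr5:55935095-55994963) stood at 13.96 and 13.23 in control and at 13.64 and 13.19 under trabectedin. The groups overlapped, with replicate 1 above replicate 2 in both. Its log2 fold change was -0.18 (SE 0.30, 95% interval -0.97 to 0.60, limma adjusted p 0.793) and turned to 0.19 without control replicate 1. This interval, from the fit without a replicate block, is wide enough to hold a change of 1.5-fold in either direction. That fit could therefore not tell a difference of that size from none. Between same-numbered arrays, which the labels do not state to be pairs, trabectedin minus control was -0.32 and -0.04.

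Among the kinases, JAK1 and JAK2 were lower and TYK2 was higher. JAK1 (chr1:64833229-65067746), the kinase on which signaling from IL6ST chiefly depends, stood at 11.12 and 10.85 in control and at 10.21 and 9.88 under trabectedin. The higher treated array lay well below the lower control array. The mean went from 10.99 ± 0.19 to 10.05 ± 0.24 (SD, n = 2), and the log2 fold change of -0.94 (SE 0.17, 95% interval -1.40 to -0.48), 1.92-fold lower, was the lowest of the 10, with a limma adjusted p of 0.128. Only 2.27% of all genes had a lower log2 fold change. Without any one array it stayed between -1.11 and -0.77, and with scaling to ribosomal protein genes it was -1.23, with a limma adjusted p of 0.00397. In that scaled fit limma gave all the genes named here the same standard error. The adjusted p of that fit therefore does not measure the spread of JAK1 itself between arrays.

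JAK2 (chr9:4984390-5129948), which also serves receptors of growth hormone and erythropoietin, stood at 8.01 and 8.09 in control and at 7.29 and 7.58 under trabectedin. The control arrays were close to each other and both lay above both treated arrays. The log2 fold change was -0.62 (SE 0.14, 95% interval -0.99 to -0.24), 1.53-fold lower, with a limma adjusted p of 0.174. It lay close to the limit of 1.5-fold, and was -0.58 without control replicate 2 and -0.47 without trabectedin replicate 1.

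TYK2 (chr19:10350533-10380572), which also serves interferon and IL-12 receptors, stood at 9.93 and 9.77 in control and at 10.17 and 10.16 under trabectedin. Both treated arrays, almost equal, lay above both control arrays. The log2 fold change was 0.32 (SE 0.12, 95% interval 0.01 to 0.62), 1.24-fold higher, with a limma adjusted p of 0.341, and it was 0.03 with scaling to ribosomal protein genes.

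STAT3 (chr17:42313324-42388442), the transcription factor that the kinases activate by phosphorylation, stood at 12.32 and 12.42 in control and at 12.04 and 12.15 under trabectedin. Both treated arrays lay below both control arrays, and the arrays of each group were close. The log2 fold change was -0.28 (SE 0.11, 95% interval -0.57 to 0.02), 1.21-fold lower, with a limma adjusted p of 0.38. The lower end of that interval is just short of 1.5-fold. These arrays read STAT3 RNA and carry no measure of its phosphorylation.

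Of the genes that STAT3 induces, the SOCS genes were near the low level of the array. SOCS1 (chr16:11254417-11256204), which blocks JAK activity, stood at 3.25 and 3.48 in control and at 3.14 and 3.44 under trabectedin, below every value of the genes of unrelated tissues. SOCS3 (chr17:78356778-78360925), which binds IL6ST and JAKs together, stood at 5.33 and 5.95 in control and at 5.63 and 5.66 under trabectedin, at or just above the top of those genes. By that yardstick neither level could be told clearly from those of genes that plasma cells are not known to express, and the file gives no detection call. Their log2 fold changes were -0.07 (SE 0.16, limma adjusted p 0.852) and 0.01 (SE 0.23, limma adjusted p 0.992), and both changed sign when some arrays were left out.

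PIM1 (chr6:37170152-37175428), a kinase of survival and growth, stood at 9.33 and 9.19 in control and at 9.18 and 9.01 under trabectedin. The groups nearly touched, since the lower control array and the higher treated array were almost equal. The log2 fold change was -0.16 (SE 0.13, 95% interval -0.50 to 0.17), with a limma adjusted p of 0.596. It was -0.079 without trabectedin replicate 2 and -0.094 without control replicate 1.

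**Figure D2:**
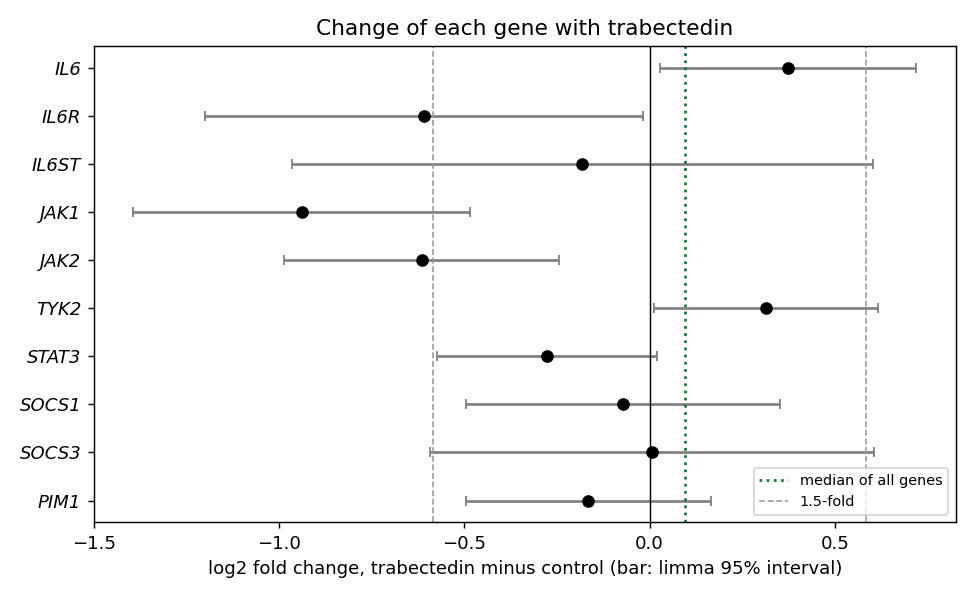
Log2 fold change of each of the 10 genes, trabectedin minus control, with limma 95% intervals from 2 arrays per group. The dotted line is the median of all genes at 0.10 and the dashed lines mark 1.5-fold. In this fit without a replicate block, the intervals of JAK1, JAK2 and IL6R lie wholly below 0, those of IL6 and TYK2 wholly above 0, and the other 5 cross it. The intervals of IL6 and TYK2 hold the median of all genes.

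The kinases were also compared with each other inside each array, where any scaling of a whole array cancels. These pairs were chosen after the values were seen, so their shifts restate the values above and are given with no test, and differences between probes of different genes have no meaning as levels, only in how they shift. JAK1 minus TYK2 was 1.19 and 1.08 in control and 0.04 and -0.28 under trabectedin, a shift of -1.25 on the log2 scale. JAK2 minus TYK2 was -1.91 and -1.68 in control and -2.88 and -2.58 under trabectedin, a shift of -0.93. JAK1 minus STAT3 shifted by -0.66 and IL6R minus IL6ST by -0.43.

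Across the genome the lower genes were mostly long ones, and the 10 genes are set beside that pattern here by the length of their locus in RefSeq. Of 1577 genes above the median level that span 100 kb or more, 51.1% were lower by at least 1.5-fold and 0.127% were higher, and the median log2 fold change was -0.60, with quartiles of -1.03 and -0.27. JAK1 (235 kb) and JAK2 (146 kb) are the members of this length, and their values of -0.94 and -0.62 lay between those quartiles. JAK2 lay close to the median of those genes and JAK1 nearer to their lower quartile.

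From 30 to 100 kb, 3.5% of 3314 genes were lower by at least 1.5-fold and the median was 0.05. IL6R (64.1 kb) at -0.61 was among those few, whereas IL6ST (59.9 kb), STAT3 (75.1 kb) and TYK2 (30.04 kb) were not. The quartiles of this length were -0.14 and 0.21. IL6ST at -0.18 and STAT3 at -0.28 lay below the lower quartile, and TYK2 at 0.32 lay above the upper one. Under 10 kb, where 0.971% of 3294 genes were lower and the median was 0.20, IL6 (4.80 kb) lay above that median at 0.38 and PIM1 (5.28 kb) below it at -0.16. The quartiles there were 0.05 and 0.37, with IL6 just above the upper and PIM1 below the lower. SOCS1 (1.79 kb) and SOCS3 (4.15 kb), also short, lay under the median level. The part of gene length in the values of the 10 genes was not tested.

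**Figure D3:**
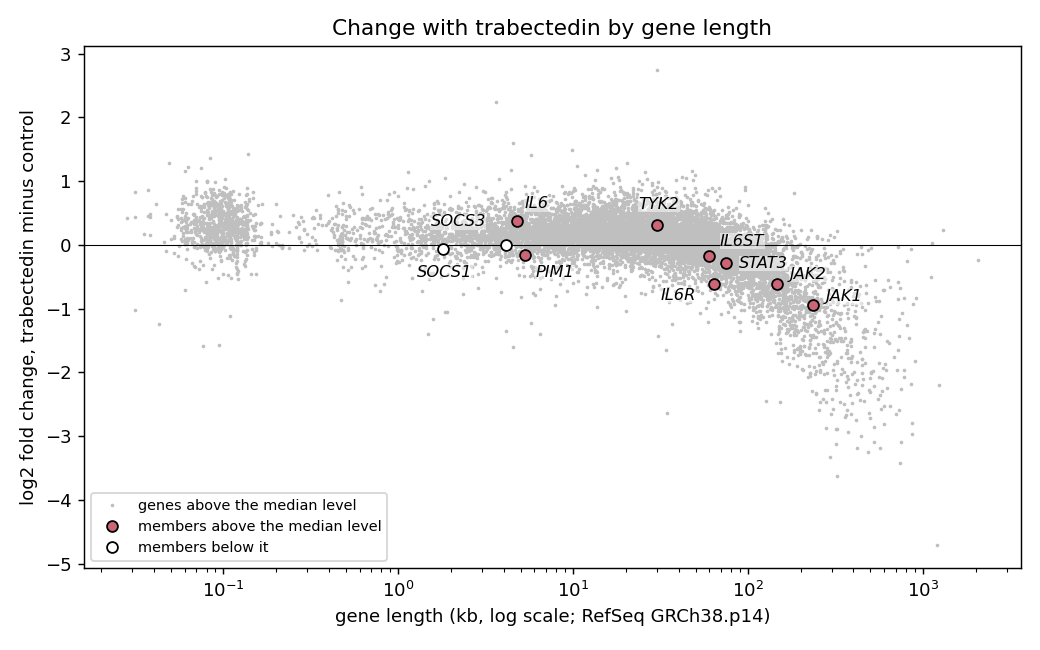
Log2 fold change, trabectedin minus control, against gene length in kb on a log scale, with genes above the median level as grey dots, the 8 members above it in red and the 2 below it in white. Genes of 100 kb and over lie mostly below 0, with a median of -0.60, and JAK1 and JAK2 sit among them. IL6 and TYK2 lie with the shorter genes above 0.

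The rest of the pathway was described by 10 lists that held 78 genes, of which 71 were measured. Together 7 were lower by 1.5-fold or more and 3 were higher, which stands beside 4.63% and 2.8% of all genes. Above the median level, where 56 of the 71 lay, the shares of all genes were 8.69% and 4.82%, and without 1 array the counts ran from 6 to 13 lower (13 without control replicate 2). The higher genes numbered 1 without control replicate 1, 8 without control replicate 2 and 5 without trabectedin replicate 1. With scaling to ribosomal protein genes, 17 of the 71 were lower and 0 higher by 1.5-fold, beside 2035 and 87 of all 22411 genes. In the unscaled fit without a replicate block, none of the 71 passed limma with adjustment. At an unadjusted limma p under 0.05, 10 were lower and 6 higher, beside 6.7% and 7.3% of all genes. The median log2 fold change of the 71, at 0.08, was close to that of all genes. The 11 of them that span 100 kb or more had a median of -0.56, and 5 of the 7 lower genes were among these. The other 60 had a median of 0.11, with 2 lower and 3 higher.

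The other ligands of the family (7 of 9 measured) had log2 fold changes between 0.09 and 0.47, with none past 1.5-fold, and 6 of the 7 lay below the median level of all genes. Their receptors (6 of 6) lay between -0.31 and 0.19, and IL27RA alone was above that level. Of the proteases that release IL6R from the membrane, ADAM10 (161 kb) was lower and ADAM17 was not. ADAM10 stood at 12.30 and 12.05 in control and at 11.25 and 11.41 under trabectedin, with no overlap and a log2 fold change of -0.84 (SE 0.14, limma adjusted p 0.113), against 0.05 for ADAM17.

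The other JAK and STAT genes (5 of 7) had none past 1.5-fold. The lowest were STAT4 at -0.45 and STAT5B at -0.42, both lower without overlap, as were 13.5% of all genes. The other SOCS genes (6 of 6) lay between -0.17 and 0.23. The PIAS genes encode SUMO ligases that restrain STAT proteins, and 2 of the 4 passed 1.5-fold in opposite directions. PIAS3, known for its binding to STAT3, stood at 7.91 and 7.80 in control and at 8.56 and 8.41 under trabectedin, a log2 fold change of 0.63 (SE 0.12, limma adjusted p 0.133). PIAS2 (117 kb) stood at 8.65 and 8.61 in control and at 7.99 and 7.95 under trabectedin, a log2 fold change of -0.66 (SE 0.10, limma adjusted p 0.104). PIAS3 was short of 1.5-fold without control replicate 2 or trabectedin replicate 1, where it was lowest at 0.55, and was 0.34 with scaling to ribosomal protein genes.

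Phosphatases and adaptors (10 of 13) had the lowest median of the lists with more than 2 genes measured, at -0.29. By at least 1.5-fold 3 of them were lower, beside 4.63% of all genes, or 8.69% above the median level, where all 10 lay. PTPRC, CBL, GAB1 and SOS1 of this list span 100 kb or more. Of all genes of that length above the median level, 51.1% were lower by 1.5-fold, and the part of length was not tested. PTPRC, the phosphatase CD45 of blood cells, stood at 7.92 and 7.22 in control and at 6.47 and 6.48 under trabectedin, a log2 fold change of -1.09 (SE 0.25, limma adjusted p 0.173). SOS1, the exchange factor that loads RAS with GTP, stood at 11.15 and 11.01 in control and at 10.24 and 10.45 under trabectedin, a log2 fold change of -0.73 (SE 0.13, limma adjusted p 0.123). GRB2, the adaptor that brings SOS1 to the receptor, stood at 10.96 and 10.81 in control and at 10.16 and 10.40 under trabectedin, a log2 fold change of -0.61 (SE 0.14, limma adjusted p 0.17). PTPRC, SOS1 and GRB2 span 119, 143 and 87.6 kb. Their groups did not overlap, which was part of the rule by which they were named. GRB2 was short of 1.5-fold without control replicate 1 or trabectedin replicate 1, where it was -0.49.

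**Figure D4:**
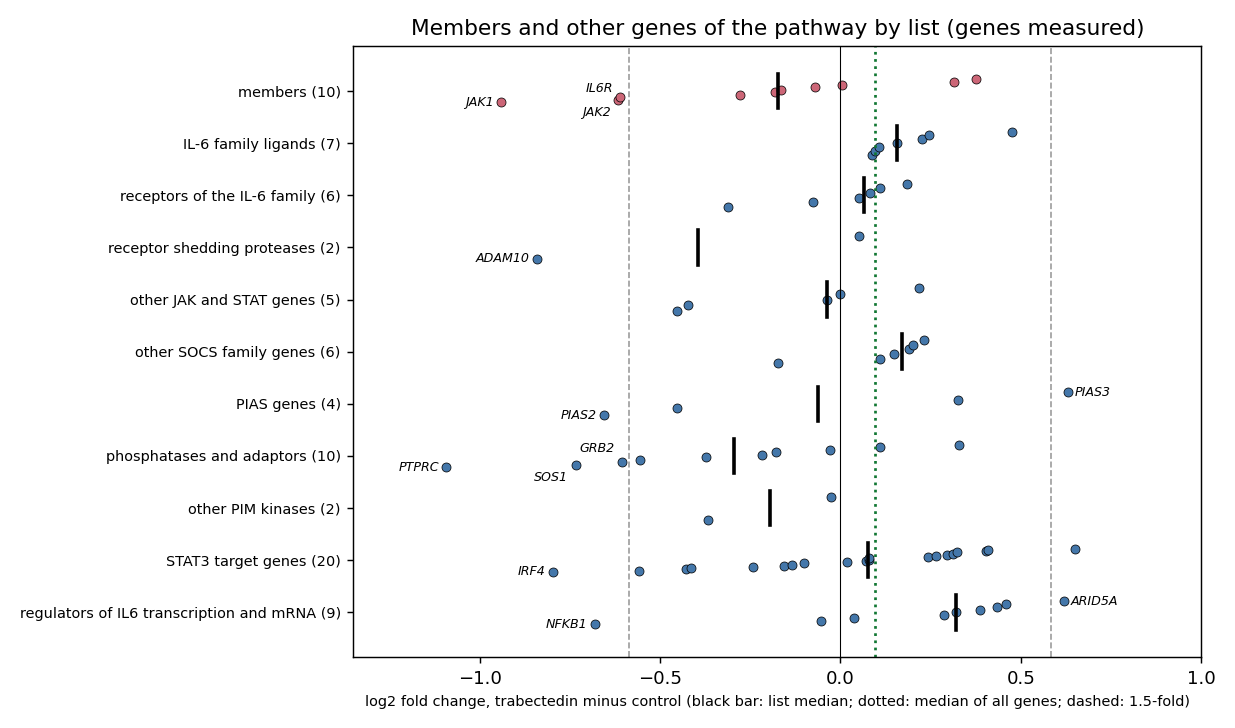
Log2 fold change, trabectedin minus control, of every measured gene of the 10 members and the 10 pathway lists, with 1 point per gene, a black bar at each list's median, a dotted line at the median of all genes and dashed lines at 1.5-fold. Labels mark the genes past 1.5-fold whose groups did not overlap. The lower genes labelled are JAK1, JAK2, IL6R, ADAM10, PIAS2, PTPRC, SOS1, GRB2, IRF4 and NFKB1, and the higher ones are PIAS3 and ARID5A.

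STAT3 target genes (20 of 20) had a median of 0.08, close to the 0.10 of all genes, and a range of -0.80 to 0.65. Both trabectedin arrays lay below both control arrays for 6 of the 20 (13.5% of all genes) and above both for 3 (35.8%). IRF4, a transcription factor on which myeloma cells depend, stood at 14.85 and 13.90 in control and at 13.84 and 13.32 under trabectedin, and was the only one past 1.5-fold without overlap. Its control arrays lay further apart than the means of the groups, and its log2 fold change of -0.80 (SE 0.37, limma adjusted p 0.424) was short of 1.5-fold without trabectedin replicate 2 or control replicate 1, where it was -0.33, and was -1.27 without control replicate 2. The survival genes BCL2L1 and MCL1 and the cyclin CCND1 had log2 fold changes of -0.41, -0.10 and -0.43, none past 1.5-fold, and for BCL2L1 the groups all but touched. BCL2L1 was at -0.11 and CCND1 at -0.25 without control replicate 1, but past 1.5-fold without control replicate 2, at -0.72 and -0.60. CCND1 was at -0.27 without trabectedin replicate 2 and past 1.5-fold without trabectedin replicate 1, and MCL1 was at -0.065 without trabectedin replicate 2. Of the other PIM kinases, PIM2 was at -0.37 with overlap, and leaving out a control array took it to -0.089 (replicate 1) or -0.64 (replicate 2).

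The regulators of IL6 transcription and mRNA (9 of 9) had a median of 0.32. NFKB1 and RELA, which encode partner subunits of NF-kB, the factor whose letters stand in capitals nearest the start of IL6 above, differed in direction. NFKB1 (116 kb) stood at 8.95 and 9.06 in control and at 8.22 and 8.42 under trabectedin, a log2 fold change of -0.68 (SE 0.13, limma adjusted p 0.13). RELA (10.3 kb) stood at 10.55 and 10.50 in control and at 11.08 and 10.89 under trabectedin, a log2 fold change of 0.46 (SE 0.12, limma adjusted p 0.214) that was 0.17 with scaling to ribosomal protein genes. ARID5A, an RNA-binding protein that stabilizes IL6 mRNA, stood at 8.09 and 8.17 in control and at 8.84 and 8.66 under trabectedin, a log2 fold change of 0.62 (SE 0.12, limma adjusted p 0.143). The groups did not overlap for any of these 3, which was part of the rule that named NFKB1 and ARID5A. Over all genes, 13.5% lay lower and 35.8% lay higher without overlap. Without trabectedin replicate 1, NFKB1 was at -0.58 and ARID5A at 0.53, both short of 1.5-fold, as was ARID5A without control replicate 1 and, at 0.33, with scaling to ribosomal protein genes.

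The immediate-early genes JUN, FOS and JUNB differed far more between arrays of 1 group than between groups. JUN stood at 6.31 and 8.47 in control and at 6.76 and 8.89 under trabectedin. FOS stood at 6.00 and 7.64 in control and at 6.25 and 8.01 under trabectedin. JUNB stood at 7.58 and 9.57 in control and at 8.61 and 9.84 under trabectedin, so that its log2 fold change of 0.65, past 1.5-fold, came with overlap and an SE of 0.77. In both groups replicate 2 was the higher array for all 3.

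The 10 members differed less than these 3 between arrays of a group, by -0.74 to 0.63 in control and by -0.45 to 0.31 under trabectedin. Their median absolute difference was 0.203 in control and 0.236 under trabectedin, larger than the 0.158 and 0.147 of all genes. Replicate 1 was the higher array in both groups for 5 of the 10 (IL6R, IL6ST, JAK1, TYK2 and PIM1) and replicate 2 for 4 (JAK2, STAT3, SOCS1 and SOCS3), with IL6 alone of opposite sign between groups.

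**Figure D5:**
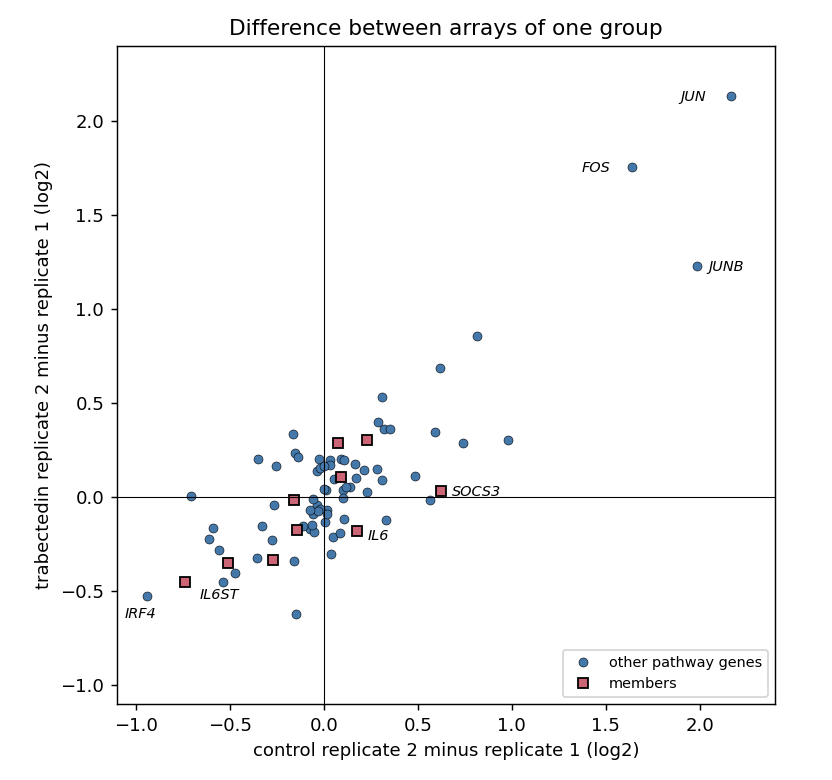
Replicate 2 minus replicate 1 on the log2 scale in control (x axis) and under trabectedin (y axis), with the 10 members as red squares and the other 71 pathway genes as blue circles. JUN, FOS and JUNB lie at the upper right, higher on replicate 2 by 1.23 or more in both groups, and the members lie closer to the centre.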

How the data were processed

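Total RNA of U266 cells was labelled and hybridized to 4 Affymetrix Human Transcriptome Arrays. The deposited log2 values were made by the authors in Affymetrix Expression Console with RMA, which corrects background, normalizes by quantiles and summarizes probes. Its version is not given in the sources used here. Between 843 and 899 values per array lay above log2 16, and whether the values were rescaled is not given in the sources used here. The labels give TRIzol and the methods another kit for RNA extraction. The quantile step sets the probe values of the arrays to 1 distribution, so a shift of all RNA is not visible. The deposited summaries still differed slightly, with medians from 5.19 on control replicate 1 to 5.37 on trabectedin replicate 2.

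Of 70523 transcript clusters, 23781 carried 1 symbol, 1543 several and 45199 none, and those without exactly 1 were left out. Symbols were updated through RefSeq (GRCh38.p14), which matched 23777 clusters and gave promoters, motif windows and the length of 22404 genes. Where a gene had several clusters (528 genes), the brightest by mean over all arrays stood for it, giving 22411 genes. Groups were compared with limma 3.58.1 (lmFit and eBayes, two-sided, no block) in R 4.3.3, adjusted by Benjamini-Hochberg over all genes at 0.05, with the R package data.table, version 1.17.8, for reading. The fit was tested on simulated data. Python 3.11.15, pandas 2.3.3 and matplotlib 3.10.9 made tables and figures.

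The members and the gene lists were chosen with earlier results of these data known. Named genes were the 10 members and every pathway gene past 1.5-fold whose groups did not overlap. RELA, JUN, FOS, JUNB, PIM2, MCL1, BCL2L1, CCND1 and STAT5B (9 genes), and STAT4, ADAM17 and IL27RA, were named after their values were seen. Genes of the lists beyond the number given as measured are not analysed here. The alternatives were to leave out each array, to add a block for replicate number, to fit only the genes above the median, to average clusters, to let the variance follow the mean, to run the methods' t-test, to ask for 2-fold, and to rescale by quantiles once more or by ribosomal protein genes.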

Additional observations from a re-analysis of the deposited data

How the results depend on the processing

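With the replicate number as a block, which the labels do not state to pair the arrays, 893 genes passed limma as lower and 499 as higher, against 0 and 0 without it. These included 3 of the 10 members, JAK1 (adjusted p = 0.0194), IL6R (0.0412) and JAK2 (0.0435), and 7 lower and 2 higher genes of the pathway lists. Deviations of same-numbered arrays correlated at r = 0.559 over all genes and at 0.665 over genes above the median level, across genes, which are not independent. Scaled to ribosomal protein genes, 830 genes passed as lower and 9 as higher, 1 member (JAK1) and 4 pathway genes passed as lower, 2035 genes were lower by 1.5-fold or more and 87 were higher, of which 17 and 0 were pathway genes. In that scaled fit limma gave all the genes named here the same standard error. For these genes, passing therefore followed the size of the change and not the gene's own spread between arrays. At 2-fold, 0 members were lower. SOCS3 turned to -0.070 with quantile normalization repeated and to -0.28 with scaling to ribosomal protein genes. Leaving out 1 array, between 0 and 223 genes passed as lower and between 0 and 5 as higher, with the most of both without trabectedin replicate 2. Genes higher by at least 1.5-fold then numbered 782 to 1275, and pathway genes 6 to 13 lower and 1 to 8 higher, the most of each without control replicate 2. Members lower by at least 1.5-fold numbered 2 without any one array. Log2 fold changes that changed sign ranged from -0.55 to 0.19 for IL6ST, -0.22 to 0.082 for SOCS1, -0.31 to 0.32 for SOCS3, -0.65 to 1.52 for JUN, -0.57 to 1.19 for FOS and -0.34 to 1.64 for JUNB. The other 22 genes kept their direction under every alternative run, and the cause of the changes was not tested. The levels of SOCS1 and SOCS3, at the low end of the array, limit what can be read of them.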
